A study of Mus musculus with 40 samples.

Results

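The 7 genes described here code for transcription factors of naive and quiescent T cells: Tcf7, Lef1, Foxo1, Foxo3, Foxp1, Bach2 and Satb1. They were chosen by name, as the rows of the deposited RNA-seq matrix with these 7 symbols, out of 21950 genes in all, and every one of the 7 was present and passed the filter on low values. The libraries came from mouse CD4+ T cells in 8 groups of 3 each, 24 libraries in all. Resting and activated conventional T cells (Tconv) and resting and activated thymus-derived regulatory T cells (tTreg, nTreg in the labels) were sorted, per the methods of the study, from the spleens of 2- to 4-month-old Foxp3-GFP reporter mice on a C57BL/6 background. Induced regulatory T cells (iTreg) were made from naive CD4+ cells of 6-week-old mice that were negative for a Foxp3 reporter. These cells were kept with antibodies to CD3 and CD28, TGF-β and IL-2 for 4 days, sorted on the reporter and rested for 1 day in IL-2. The methods name GFP or RFP as this reporter and do not say which one the iTreg libraries carried. The remaining iTreg groups were restimulated through CD3 and CD28, alone, with an ORAI inhibitor (ORAIinh in the labels, CM-4620 in the methods) or with CsA (cyclosporine A). The ORAI channel lets calcium into the cell, and CsA blocks calcineurin, the phosphatase that calcium activates and that sends NFAT to the nucleus. The duration of Tconv and tTreg activation before RNA-seq and the surface gate of the Tconv libraries are not given in the sources used here, and nothing says whether the libraries of a group came from separate mice, so that p-values measure the spread between these libraries only.

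As background, naive T cells stay quiescent through a small network of transcription factors. TCF1 (gene Tcf7) and LEF1 are sister HMG-box proteins that bind the same DNA motif and hold β-catenin or Groucho/TLE co-repressors. FOXO1 and FOXO3 are forkhead factors that are excluded from the nucleus once AKT phosphorylates them downstream of the antigen receptor and CD28. In resting cells they drive genes of homing and survival such as Klf2 and Il7r. FOXP1, another forkhead protein, restrains the growth of naive cells. BACH2 is a basic leucine zipper repressor that occupies AP-1 sites and limits effector genes. SATB1 is an organizer of chromatin loops in thymocytes that is known to be kept low in mature Treg.

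The 7 genes lay on GRCm38 (GENCODE vM21) at chr11:52252371-52283014 on the minus strand for Tcf7 and chr3:131110471-131224356 on the plus strand for Lef1. Foxo1 lay at chr3:52268336-52353221 (plus), Foxo3 at chr10:42181841-42276755 (minus) and Foxp1 at chr6:98925338-99522721 (minus). Bach2 lay at chr4:32238804-32586108 (plus) and Satb1 at chr17:51736187-51833290 (minus). The library protocol does not mark strand, and 13.7% of the exon bases of Lef1, 7.78% of those of Foxo1 and 5.4% of those of Bach2 are shared with genes on the other strand, so that reads there cannot be assigned to either gene. For Satb1 the share was 0.673%, and for Tcf7, Foxo3 and Foxp1 it was 0. On the same strand, Foxp1 shared 3.16% of its exon bases with other genes and Satb1 0.82%.

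The 250 bases upstream of a start site are shown for 3 of the genes, Lef1 for the group that was highest in resting Tconv, Bach2 for its response in restimulated iTreg and Satb1 for its difference between iTreg and tTreg. The sequences are RefSeq's (GRCm38.p6), each read 5′ to 3′ on the strand of its gene from the entry with the start nearest to the GENCODE 5′ end. Capitals mark matches to GGAAA, the core that NFAT proteins bind, or to its reverse complement TTTCC.
Lef1, chr3:131110073-131110322, plus strand: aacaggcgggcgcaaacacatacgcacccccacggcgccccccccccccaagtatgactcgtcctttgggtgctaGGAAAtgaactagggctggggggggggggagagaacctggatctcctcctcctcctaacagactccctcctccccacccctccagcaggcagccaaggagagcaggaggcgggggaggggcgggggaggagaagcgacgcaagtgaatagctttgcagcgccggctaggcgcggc
Bach2, chr4:32417185-32417434, plus strand: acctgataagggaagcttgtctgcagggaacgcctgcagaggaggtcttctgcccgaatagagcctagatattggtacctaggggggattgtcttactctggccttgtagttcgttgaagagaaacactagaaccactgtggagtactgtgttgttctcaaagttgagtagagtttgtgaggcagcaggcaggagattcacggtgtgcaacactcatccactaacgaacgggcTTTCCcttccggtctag
Satb1, chr17:51833291-51833540, minus strand: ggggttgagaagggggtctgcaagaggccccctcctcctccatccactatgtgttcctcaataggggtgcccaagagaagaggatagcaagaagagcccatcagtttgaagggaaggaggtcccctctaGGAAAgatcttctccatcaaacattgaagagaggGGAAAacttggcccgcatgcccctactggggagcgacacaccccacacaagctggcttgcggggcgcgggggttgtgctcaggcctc
The Lef1 window held 1 match, the Bach2 window 1 and the Satb1 window 2. A match stood in 55.6% of the 32841 windows of the table of this length. The other motifs searched on both strands were TGANTCA for AP-1, GTAAACA for FOXO proteins and CTTTGAT for TCF and LEF proteins, which 6.75%, 3.17% and 3.21% of the windows held. None of these 3 motifs was found in the windows of the 7 genes. Of the windows not shown, that of Tcf7 appears to hold coding sequence of a longer isoform. The start of the Foxp1 entry lies 1728 bases from the GENCODE 5′ end. The matches describe the letters only. The start of the Bach2 entry lies 178631 bases inside the GENCODE gene, so its window belongs to an internal start.

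Per library, 5256800 to 15685234 reads on genes were recovered from the deposited values, and the tTreg libraries were the shallowest, with medians of 7582032 (resting) and 7131717 (activated). At least 313 reads lay on each of the 7 genes in each library, so depth did not limit their detection. All 6 CD4 T cell markers were present in all groups, and the Treg marker Foxp3 stood at 9.66 to 11.3 normalized counts in resting Tconv, 7218 to 7767 in resting tTreg and 1178 to 1338 in resting iTreg. Of the B cell markers, Ms4a1 and Pax5 were at 0 in every library. The summed B cell list still ranged from 128 to 136 in resting tTreg against 20.2 to 31.9 in resting Tconv, nearly all of it Cd79b. The NK cell list summed to 19.3 to 30.9 in resting Tconv and to 0 in all tTreg and iTreg libraries, and the CD8 T cell list to 223 to 236 in resting Tconv against 99.1 to 122 in resting iTreg, mostly Cd8b1. The part of these cells in the differences between groups was not tested. In bulk libraries such as these, fewer cells that express a gene and less RNA of it in each cell cannot be told apart, and the age of the mice cannot be told apart from the cell type in comparisons of iTreg with Tconv or tTreg.

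Per length, Tcf7 was the most abundant of the 7 genes in Tconv and tTreg, and Satb1 and Tcf7 were about equal in resting iTreg. This order depends on the lengths used, those of all annotated exons of a gene together, such as 2625 bases for Tcf7 and 19027 for Satb1. Without division by length, resting tTreg held 2776 normalized counts of Lef1 against 1221 of Tcf7. Resting iTreg held 5158 of Satb1 against 709 of Tcf7. On the scale of normalized counts per kb of exon, resting Tconv held 6176 ± 169 of Tcf7 (SD, n = 3), 1058 ± 25.8 of Lef1, 419 ± 6.41 of Foxp1 and 391 ± 10.7 of Satb1. Foxo1 followed at 173 ± 3.30, Bach2 at 114 ± 3.50 and Foxo3 at 67.1 ± 2.35 per kb. Tcf7 made up 73.5% of the summed level per kb of the 7 genes in resting Tconv, 29.8% in resting tTreg and 25.5% in resting iTreg. In resting iTreg, Satb1 stood at 271 ± 18.0 and Tcf7 at 270.0 ± 15.2 per kb, which did not differ beyond their spread.

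**Figure D1:**
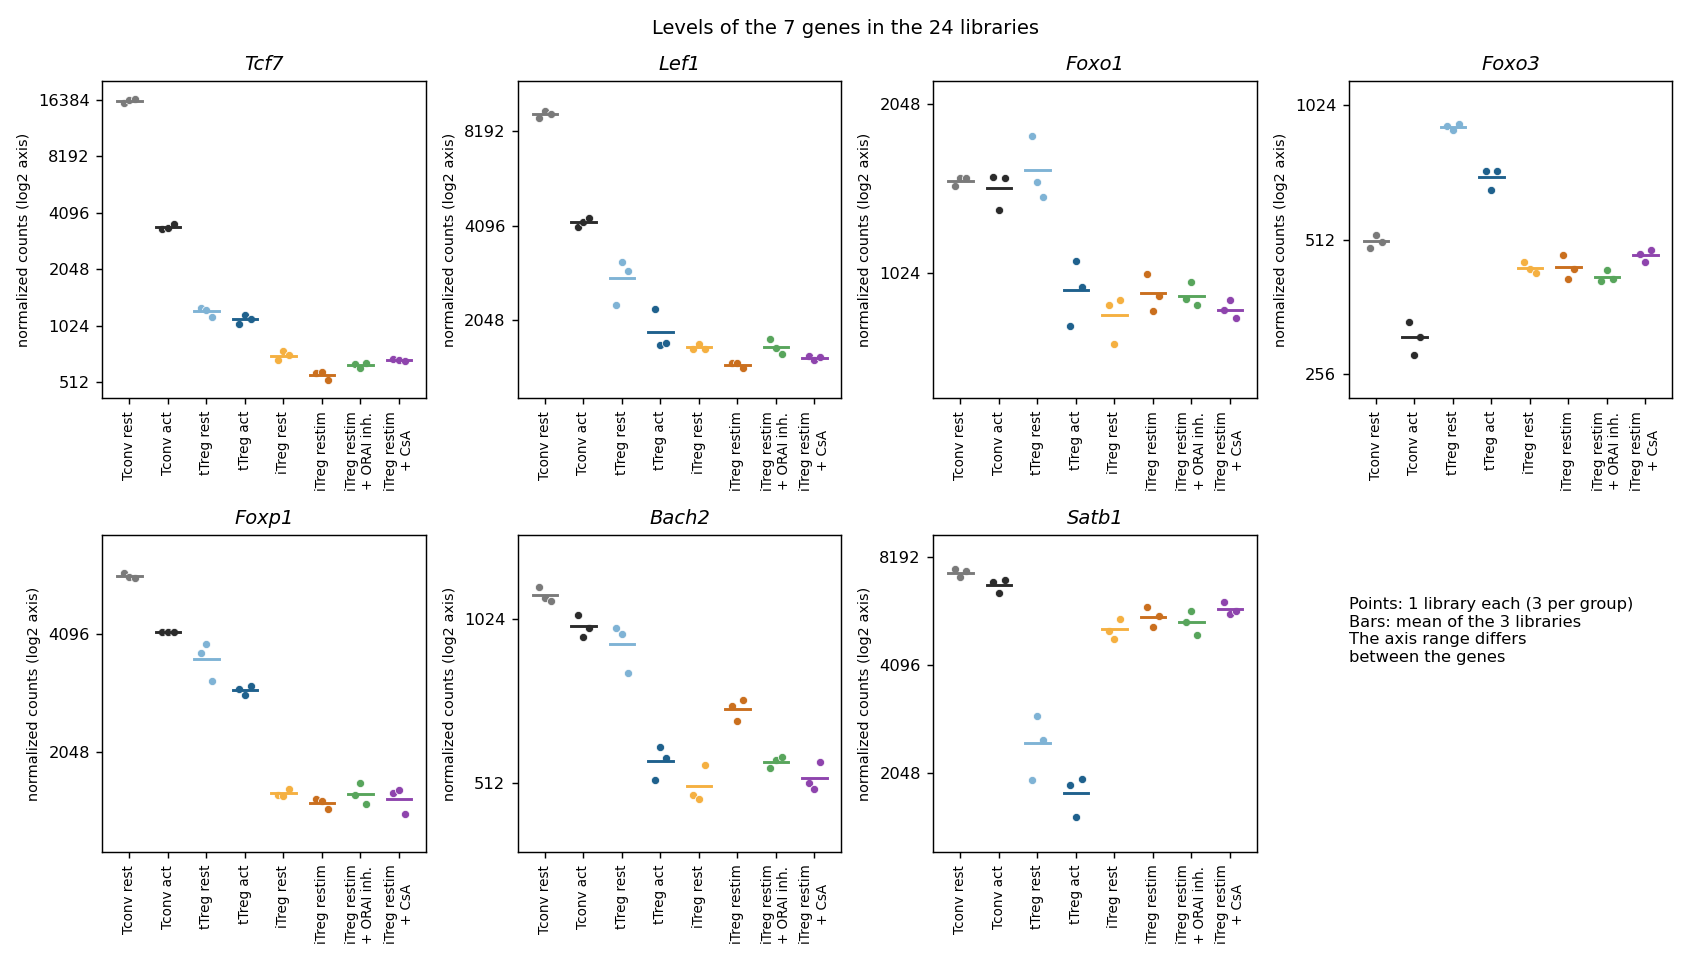
Normalized counts (log2 axis, own range for each gene) of the 7 genes in the 8 groups, with 1 point for each library and a bar for the mean of 3 libraries. Tcf7 spans 29.1-fold between the mean of resting Tconv and that of restimulated iTreg, and Foxo1 1.81-fold between its highest and lowest group. The means go down from Tconv to tTreg to iTreg for Tcf7, Lef1 and Foxp1, and the order differs for Foxo1, Foxo3, Bach2 and Satb1.

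The HMG-box pair, Tcf7 and Lef1, had the widest range of the 7 genes. Tcf7 read 15701, 16434 and 16500 normalized counts in the resting Tconv libraries and 3363, 3382 and 3565 after activation. It read 1277, 1242 and 1144 in resting tTreg, 1050, 1170 and 1110 in activated tTreg, and 667, 747 and 713 in resting iTreg. Every Tconv library, activated ones included, lay above every Treg library, and every tTreg library lay above every iTreg library. Restimulated iTreg were lowest at 573, 576 and 524, and the ratio of the highest to the lowest group mean was 29.1. In the order of the 8 groups, resting and activated tTreg overlapped, as did resting iTreg and restimulated iTreg with CsA, and no other neighbours did.

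Lef1 had nearly the same order over a smaller range. It read 9057, 9504 and 9342 in resting Tconv, 4061, 4216 and 4327 in activated Tconv, and 2283, 3123 and 2920 in resting tTreg. Activated tTreg held 2210, 1693 and 1724 and resting iTreg 1649, 1707 and 1654. Here activated tTreg overlapped with restimulated iTreg with the ORAI inhibitor, which overlapped with resting iTreg. The highest group mean was 6.34 times the lowest. The ratio of Tcf7 to Lef1 per kb was 5.83 ± 0.0677 in resting Tconv (SD, n = 3), 2.74 ± 0.0464 in activated Tconv, 1.51 ± 0.319 in resting tTreg and 1.42 ± 0.0582 in resting iTreg, so Tcf7 differed more than Lef1 between Tconv and Treg.

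Foxo1 and Foxo3 differed in their order. Foxo1 read 1464, 1512 and 1514 in resting Tconv, 1521, 1328 and 1513 in activated Tconv and 1800, 1490 and 1398 in resting tTreg, 3 groups that overlapped. It read 824, 1077 and 966 in activated tTreg and 900, 767 and 917 in resting iTreg, and all libraries of activated tTreg and of the 4 iTreg groups lay below the other 9. Foxo3 was highest in resting tTreg at 919, 903 and 928, followed without overlap by activated tTreg at 731, 663 and 728 and resting Tconv at 491, 526 and 507. Its lowest group was activated Tconv, at 336, 283 and 311. The ratio of Foxo1 to Foxo3 per kb was 4.11 ± 0.15 in activated Tconv and 1.19 ± 0.218 in activated tTreg (SD, n = 3).

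Foxp1, Bach2 and Satb1 were each highest in resting Tconv. Foxp1 read 5862, 5728 and 5696 in resting Tconv, 4146, 4143 and 4141 in activated Tconv, 3662, 3850 and 3099 in resting tTreg and 1591, 1577 and 1647 in resting iTreg, and the 12 iTreg libraries, between 1423 and 1711, overlapped with no other group. Bach2 read 1173, 1121 and 1108 in resting Tconv, 989, 963 and 817 in resting tTreg and 487, 477 and 553 in resting iTreg. Satb1 was high in Tconv and iTreg and low in tTreg. It read 7584, 7202 and 7509 in resting Tconv, 5116, 4837 and 5520 in resting iTreg and 1957, 2948 and 2524 in resting tTreg, and the highest of the 6 tTreg libraries lay below the lowest of the 12 iTreg libraries. Satb1 was the only one of the 7 genes for which this held.

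To ask how the 3 resting cell types differed, limma was fitted to the log2 of the normalized count plus 1 across the genes, and a gene counted as changed where its Benjamini-Hochberg adjusted p was under 0.05 and its log2 fold change exceeded 0.5 in size. Between resting tTreg and resting Tconv, 5 of the 7 genes changed, 4 lower in tTreg and 1 higher, beside 38.6% of all genes tested. Tcf7 was 13.3-fold lower (log2 fold change -3.73 ± 0.07 SE, adjusted p = 9e-15), Lef1 3.35-fold (-1.76 ± 0.11, adjusted p = 7.17e-09), Satb1 3.00-fold (-1.61 ± 0.13, adjusted p = 6.44e-08) and Foxp1 1.63-fold (-0.71 ± 0.07, adjusted p = 1.68e-06). Foxo3 was higher in tTreg (0.85 ± 0.08, adjusted p = 5.21e-07). Foxo1 (0.05, 95% interval -0.19 to 0.30) and Bach2 (-0.30, adjusted p = 0.0125) did not pass.

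In resting iTreg, 6 of the 7 genes were lower than in resting Tconv and none was higher, beside 63.6% of all genes that changed. Tcf7 was 22.9-fold lower (-4.52 ± 0.07), Lef1 5.57-fold (-2.48 ± 0.11), Foxp1 3.59-fold (-1.84 ± 0.07) and Bach2 2.24-fold (-1.17 ± 0.09). Foxo1 (-0.80 ± 0.11) and Satb1 (-0.53 ± 0.13) changed less, and Foxo3 did not pass (-0.20, adjusted p = 0.0393). Without resting iTreg replicate 2, Satb1 stood at -0.48 and 5 genes passed. The share of members, 6 of 7, has to be read against the 63.6% of all genes. The proliferation list moved with this comparison: all 10 of its genes were higher in resting iTreg, with a median log2 fold change of 6.99, Mki67 at 6.70 and Top2a at 8.14 among them, against 0.02 over all genes. Its part in the levels of the 7 genes was not tested.

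Directly between the resting Treg types, all 7 genes changed, with 6 lower in iTreg and Satb1 higher, beside 63.4% of all genes. Satb1 was 2.08-fold higher in iTreg (1.08 ± 0.13, adjusted p = 1.89e-06). Foxp1 was 2.20-fold lower (-1.13 ± 0.07), Foxo3 2.07-fold (-1.05 ± 0.08), Bach2 1.82-fold (-0.86 ± 0.09), Foxo1 1.81-fold (-0.85 ± 0.11), Tcf7 1.72-fold (-0.78 ± 0.07) and Lef1 1.66-fold (-0.72 ± 0.11). The 3 resting comparisons share their groups and are therefore not independent.

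**Figure D2:**
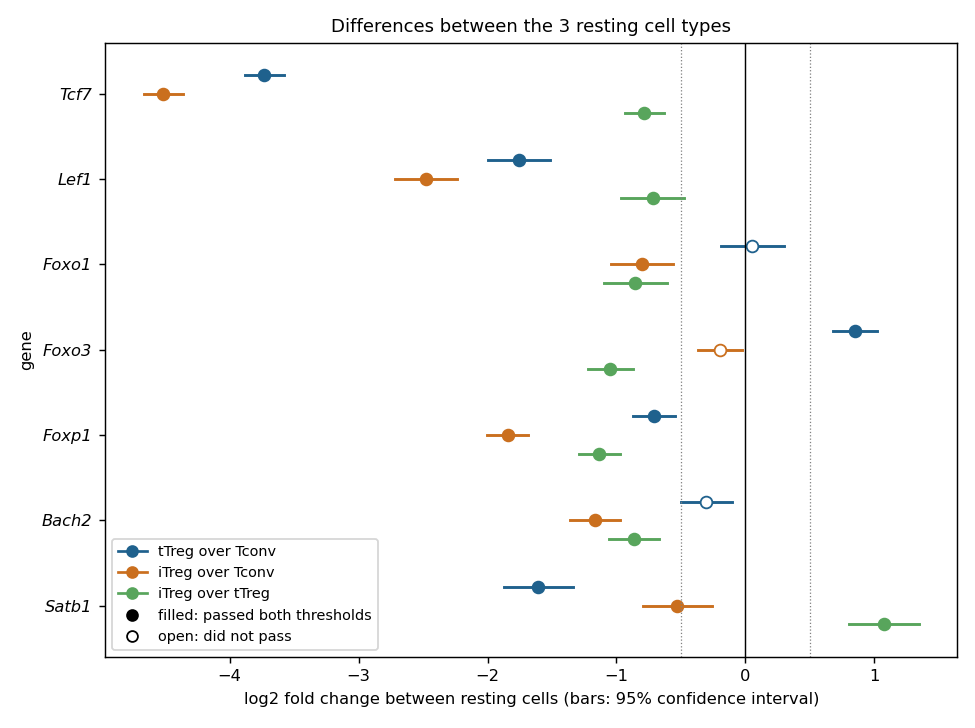
Log2 fold change (x axis) of each gene (y axis) between resting cell types, with 95% confidence intervals. Filled points passed both thresholds and open points did not, and dotted lines mark a log2 fold change of 0.5 in either direction. Satb1 is the gene whose iTreg over tTreg point lies to the right of 0, at 1.08.

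Activation of Tconv lowered 3 of the 7 genes and raised none, beside 50.2% of all genes that changed. Tcf7 fell by 78.8% in the mean (log2 fold change -2.24 ± 0.07, adjusted p = 2.51e-12). Lef1 fell by 54.8% (-1.15 ± 0.11, adjusted p = 4.89e-07) and Foxo3 by 39.0% (-0.71 ± 0.08, adjusted p = 2.06e-06). Foxp1 missed the fold threshold (-0.48, adjusted p = 6.05e-05). Foxo1 (-0.04, 95% interval -0.29 to 0.20), Bach2 (-0.19, -0.39 to 0.01) and Satb1 (-0.12, -0.38 to 0.15) did not pass.

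Activation of tTreg also lowered 3 genes and raised none, beside 21.9% of all genes. These were Bach2 (-0.72 ± 0.09, adjusted p = 5.33e-05), Foxo1 (-0.71 ± 0.11, adjusted p = 0.000322) and Lef1 (-0.56 ± 0.11, adjusted p = 0.00162). The Bach2 libraries went from 989, 963 and 817 to 519, 595 and 569, and the Foxo1 libraries from 1398 or more to 1077 or less, each without overlap. Lef1 did not overlap either, but its call was lost without resting tTreg replicate 2 (-0.47) or activated tTreg replicate 2 (-0.495). Tcf7 differed by -0.14 (95% interval -0.29 to 0.02), and Foxo3 (-0.37), Foxp1 (-0.26) and Satb1 (-0.45) stayed under the fold threshold at adjusted p = 0.00267, 0.016 and 0.0134.

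The interaction tested the difference between the responses of Tconv and tTreg, and 4 of the 7 genes passed, beside 34.7% of all genes. The drop of Tcf7 was larger in Tconv by 2.10 on the log2 scale (-2.10 ± 0.10, adjusted p = 1.02e-09) and that of Lef1 by 0.58 (-0.58 ± 0.16, adjusted p = 0.00942). The drop of Foxo1 (0.66 ± 0.16, adjusted p = 0.00445) and of Bach2 (0.53 ± 0.13, adjusted p = 0.00495) was larger in tTreg. Without resting tTreg replicate 1, or without activated tTreg replicate 1, the count fell to 2, since Lef1 and Bach2 then lay between 0.45 and 0.47 in size.

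After activation, 6 of the 7 genes differed between tTreg and Tconv, 5 lower and Foxo3 higher, beside 48.2% of all genes. Satb1 (-1.94 ± 0.13), Tcf7 (-1.63 ± 0.07), Lef1 (-1.17 ± 0.11), Bach2 (-0.83 ± 0.09) and Foxo1 (-0.61 ± 0.11) were lower in activated tTreg, and Foxo3 was 2.28-fold higher (1.19 ± 0.08). Foxp1 stood at -0.49, short of the fold threshold. It ranged from -0.53, with size factors recomputed over these libraries, to -0.38 under quantile normalization. With the recomputed size factors Foxp1 passed both thresholds. It also passed with edgeR (-0.525) and DESeq2 (-0.533) on the recovered reads, and without activated tTreg replicate 3 (-0.51).

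**Figure D3:**
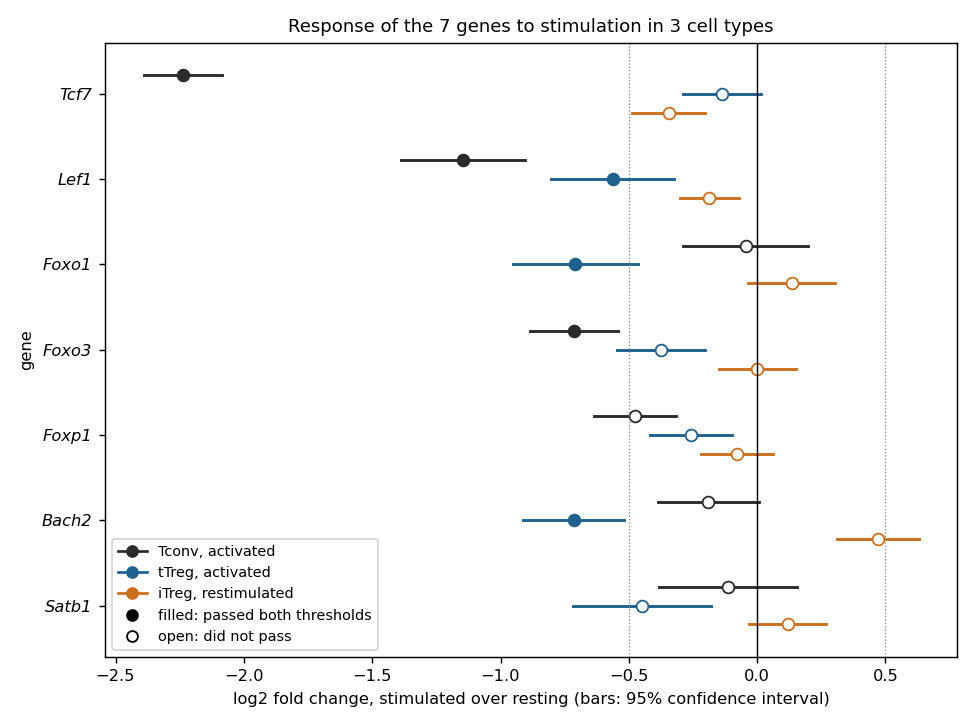
Log2 fold change (x axis) of each gene (y axis) on stimulation of Tconv, tTreg and iTreg, with 95% confidence intervals. Filled points passed both thresholds, open points did not, and dotted lines mark a log2 fold change of 0.5 in either direction. The Tconv point of Tcf7 lies at -2.24, and Bach2 lies at -0.72 in tTreg and 0.47 in iTreg.

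Restimulation of iTreg changed none of the 7 genes by both thresholds, beside 12.8% of all genes. By the adjusted p alone, a rule added after the data were seen, limma passed 3 of the 7, beside 29.4% of all genes, and the unadjusted p was below 0.05 for 3, beside 39.8%. With edgeR and DESeq2 on the recovered reads none passed both thresholds either. Bach2 read 487, 477 and 553 in resting iTreg and 708, 665 and 727 after restimulation, all above the resting libraries and 1.38 times the mean (0.47 ± 0.07 SE, adjusted p = 0.000264). It passed the fold threshold too without resting iTreg replicate 3 (0.54) or restimulated iTreg replicate 2 (0.51). Tcf7 read 667, 747 and 713 before and 573, 576 and 524 after (-0.35 ± 0.07, adjusted p = 0.00124). Lef1 read 1649, 1707 and 1654 before and 1484, 1487 and 1433 after (-0.19 ± 0.05, adjusted p = 0.0175). For 4 of the 7 genes the resting and restimulated libraries did not overlap (Tcf7, Lef1, Foxp1 and Bach2), beside 39.5% of all genes. The intervals of the others lay inside the fold threshold, from -0.22 to 0.06 for Foxp1, -0.15 to 0.15 for Foxo3, -0.03 to 0.30 for Foxo1 and -0.03 to 0.27 for Satb1.

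With the ORAI inhibitor during restimulation, none of the 7 genes changed against restimulated iTreg by both thresholds, beside 3.3% of all genes, and with CsA none did, beside 2.92%. By limma's adjusted p alone, 2 of the 7 passed with the ORAI inhibitor (7.83% of all genes) and 2 with CsA (8.51%). The unadjusted p was below 0.05 for 3 and 2 of the 7, beside 20.6% and 22.8% of all genes, and edgeR and DESeq2 passed none by both thresholds. Bach2 was in both pairs. Its libraries read 545, 564 and 571 with the ORAI inhibitor and 512, 499 and 560 with CsA, all below the 665 to 727 of restimulated iTreg (-0.32 ± 0.07, adjusted p = 0.0156 and -0.42 ± 0.07, adjusted p = 0.00314). On the log2 scale, 31.9% ± 7.55 (SD, n = 3) of the Bach2 difference between restimulated and resting iTreg was left with the ORAI inhibitor and 10.9% ± 18.5 with CsA. The resting and restimulated means were held fixed, so these SDs carry the spread of the inhibitor libraries only. Such shares were taken only for Bach2, Tcf7 and Lef1, picked for the largest restimulation differences in these same libraries.

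Tcf7 read 682, 671 and 661 with CsA, above the 524 to 576 of restimulated iTreg (0.27 ± 0.07, adjusted p = 0.0224), and 638, 605 and 646 with the ORAI inhibitor (0.17 ± 0.07, adjusted p = 0.138). Lef1 read 1773, 1660 and 1586 with the ORAI inhibitor (0.19 ± 0.05, adjusted p = 0.0475) and 1567, 1525 and 1553 with CsA (0.08 ± 0.05, adjusted p = 0.442). For 3 of the 7 genes, Tcf7, Lef1 and Bach2, the libraries with either inhibitor did not overlap with those of restimulated iTreg, beside 25.5% of all genes with the ORAI inhibitor and 28.0% with CsA. On the log2 scale, 49.3% ± 14.6 (SD, n = 3) of the Tcf7 difference between restimulated and resting iTreg was left with the ORAI inhibitor and 22.2% ± 6.36 with CsA. For Lef1 it was -0.674% ± 43.3 with the ORAI inhibitor and 58.7% ± 10.7 with CsA. As for Bach2, these SDs leave out the spread of the resting and restimulated libraries. Foxp3, by comparison, fell on restimulation (-0.85, adjusted p = 3.57e-06) and did not pass against it with either inhibitor (0.28 and 0.10). The 2 inhibitor groups share the restimulated libraries as their reference.

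Between the inhibitors themselves none of the 7 genes differed, beside 0.36% of all genes. Against resting iTreg none differed with the ORAI inhibitor, beside 7.1% of all genes, or with CsA, beside 9.43%, and edgeR and DESeq2 passed none by both thresholds. By limma's adjusted p alone the count was 0 in all 3 comparisons, beside 0.774%, 18.4% and 24.4% of all genes. The unadjusted p was below 0.05 for 1 of the 7 in each, in turn Foxo3, Tcf7 and Satb1, beside 11.2%, 31.3% and 36.5% of all genes. The 95% interval of the Bach2 difference from resting iTreg was -0.01 to 0.31 with the ORAI inhibitor and -0.11 to 0.21 with CsA, and that of Tcf7 -0.31 to -0.03 and -0.22 to 0.07.

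**Figure D4:**
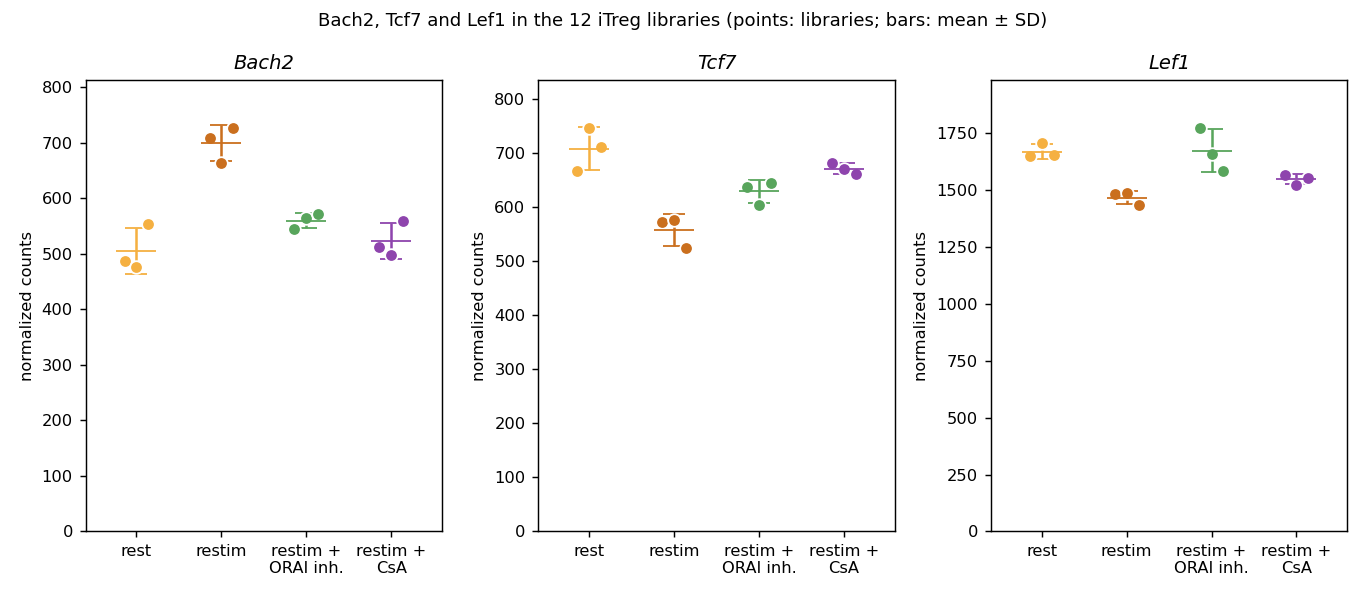
Normalized counts (y axis from 0) of Bach2, Tcf7 and Lef1 in resting iTreg and in iTreg restimulated alone, with the ORAI inhibitor or with CsA. Points are libraries and bars the mean ± SD of 3. The restimulated Bach2 libraries, at 665 to 727, lie above the other 9, and the restimulated Tcf7 and Lef1 libraries lie below the other 9.

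Restimulated iTreg were also set against the activated cells of the other types. Against activated tTreg, 4 of the 7 genes differed, beside 59.3% of all genes: Tcf7 (-0.99 ± 0.06), Foxp1 (-0.95 ± 0.07) and Foxo3 (-0.67 ± 0.07) were lower and Satb1 higher (1.64 ± 0.11, adjusted p = 2.15e-11). Against activated Tconv, 6 differed, beside 44.3% of all genes, and Foxo3 alone was higher (0.52 ± 0.07). Tcf7 (-2.62 ± 0.06), Lef1 (-1.52 ± 0.10) and Foxp1 (-1.45 ± 0.07) had the lowest values. Resting iTreg against activated Tconv gave 6 as well, beside 41.6% of all genes, again with Foxo3 alone higher (0.52 ± 0.08). Neither Foxo3 call held throughout. In restimulated iTreg Foxo3 fell short of the fold threshold under quantile normalization (0.47), with edgeR (0.43), without activated Tconv replicate 2 (0.46) and without restimulated iTreg replicate 1 (0.47). In resting iTreg it did so under quantile normalization (0.44), with edgeR (0.4998) and DESeq2 (0.498), without activated Tconv replicate 2 (0.46) and without resting iTreg replicate 1 (0.4975). Bach2, lower in restimulated iTreg, lost its call without activated Tconv replicate 1 or restimulated iTreg replicate 2 (-0.47 in both). Whether the stimulation lasted equally long in the 3 cell types is not given in the sources used here.

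Among 9 relatives of the 7 genes, 6 could be tested in Tconv and tTreg. Of these, 5 were higher in resting tTreg than in resting Tconv, beside 20.5% of all genes. They were Foxp3 (9.37), Tcf7l2 (2.71), Foxo4 (1.36), Foxp4 (1.10) and Tcf7l1 (1.05). Foxo4 belongs to the family of Foxo1 and Foxo3, and Tcf7l1 and Tcf7l2 to that of Tcf7 and Lef1. In resting iTreg against resting Tconv 2 rose (Foxp3 and Foxp4) and 2 fell (Bach1 and Tcf7l2), beside 32.8% and 30.8% of all genes. Per the methods of the study, tTreg and iTreg were sorted on the Foxp3 reporter. Their higher Foxp3 was therefore set by the sort and is no result about the relatives. Bach1, the sister of Bach2, fell on Tconv activation (-1.99, adjusted p = 1.99e-08), where Bach2 did not pass.

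Genes that FOXO1 is known to control in T cells moved in Tconv although Foxo1 itself did not pass. Of 15 listed, 11 fell and 2 rose on Tconv activation, beside 25.7% of all genes that fell and 24.5% that rose. The median log2 fold change was -2.05 against -0.04 over all genes. Il7r, the IL-7 receptor, fell by 4.99 on the log2 scale, S1pr1, the receptor for exit from lymph nodes, by 3.03, and Klf2, which drives S1pr1, by 2.05. Ccr7, a receptor for homing to lymph nodes, rose (1.09). In tTreg 6 fell and 1 rose, beside 10% and 11.9% of all genes, with a median of -0.44, and Klf2 fell by 0.56. The part of the Foxo1 level in these changes was not tested. In resting iTreg 14 of 15 were lower than in resting Tconv (median -2.35), beside 30.8% of all genes, with Klf2 at -3.18 and S1pr1 at -3.40.

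On iTreg restimulation 7 of 14 FOXO1 targets fell and 2 rose, beside 6.13% and 6.7% of all genes. Klf2 stood at -2.02 (adjusted p = 6.41e-05) and Txnip, an inhibitor of glucose uptake, at -0.90. With the ORAI inhibitor Txnip (0.55) and Pik3ip1, an inhibitor of PI3K (0.53), were higher than in restimulated iTreg. With CsA Txnip (0.82), Pik3ip1 (0.72) and Il7r (0.62) were higher, and none was lower with either inhibitor. Of all genes, 1.5% were higher and 1.79% lower with the ORAI inhibitor, and 1.57% and 1.35% with CsA. Klf2 did not pass with the ORAI inhibitor (0.93, adjusted p = 0.0541) or CsA (0.78, adjusted p = 0.0995). Of the 10 regulators of FOXO proteins, 2 rose and 3 fell on Tconv activation, beside 24.5% and 25.7% of all genes. Among them were Akt2 (0.87) and Sgk1 (-4.51), kinases that phosphorylate FOXO proteins.

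The partners of TCF1 and LEF1 fell more often than they rose on Tconv activation. Of 11 tested, 7 fell and 1 rose, beside 25.7% and 24.5% of all genes, with a median of -0.75. Axin2, a target and brake of β-catenin signalling, fell by 1.93, Bcl9l, a β-catenin co-activator, by 1.57, Tle4, a Groucho co-repressor, by 1.46, and β-catenin itself (Ctnnb1) by 0.59. In tTreg 4 fell and 1 rose, beside 10% and 11.9% of all genes. In restimulated iTreg 3 of 12 fell, Tle4 (-1.10), Axin2 (-0.99) and Bcl9l (-0.51), beside 6.13% of all genes. Tle4 was higher with the ORAI inhibitor (0.64, adjusted p = 0.0484). Of the small Maf proteins, the dimer partners of BACH2, Mafg fell on Tconv activation (-0.53) and Maff on tTreg activation (-1.17).

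Effector genes that BACH2 or FOXO1 are known to restrain were divided. On Tconv activation 5 of 10 rose and 4 fell, beside 24.5% and 25.7% of all genes. Il2ra (6.74) and Gzmb (5.67) were up and Rora (-2.31) and Cxcr3 (-1.62) down. On tTreg activation 3 rose, Zeb2 (1.64), Gzmb (1.09) and Id2 (0.80), and none fell, beside 11.9% and 10% of all genes. In restimulated iTreg 4 rose, Zeb2 (1.19), Tbx21 (1.13), Maf (0.81) and Gzmb (0.76), and Cxcr3 fell (-1.08), beside 6.7% and 6.13% of all genes. Zeb2 was lower than in restimulated iTreg with the ORAI inhibitor (-0.61) and with CsA (-0.78), as was Tbx21 with the ORAI inhibitor (-1.64) and Ifng with CsA (-2.73). Cxcr3 was higher with the ORAI inhibitor (0.63) and Id2 with CsA (0.72). Bach2 itself stood at -0.72 on tTreg activation and at 0.47 on restimulation. The part of Bach2 or Foxo1 in the changes of the effector genes was not tested.

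Of 10 naive surface and marker genes, 4 are also FOXO1 targets. Against resting Tconv, 8 of the 10 were lower in resting tTreg, beside 18.2% of all genes, and 8 in resting iTreg, beside 30.8%. Treml2 was higher in both (2.12 and 2.22), and Igfbp4 was lower in tTreg (-3.37) and higher in iTreg (5.15). All 9 quiescence genes tested, 2 of them also FOXO1 targets, fell on Tconv activation, beside 25.7% of all genes. Their median was -2.05, with Tob1, an anti-proliferative factor, at -3.80. In tTreg 6 of 9 fell, beside 10% of all genes, with Slfn2 at -1.21. In restimulated iTreg 4 of 10 fell, beside 6.13% of all genes, Klf2 (-2.02), Vsir (-0.91) and Tob1 (-0.71) among them. The 10 proliferation genes rose in Tconv (median 2.84) and in tTreg (median 1.92), beside 24.5% and 11.9% of all genes. None passed in restimulated iTreg (median -0.30), beside 12.8% of all genes that changed.

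**Figure D5:**
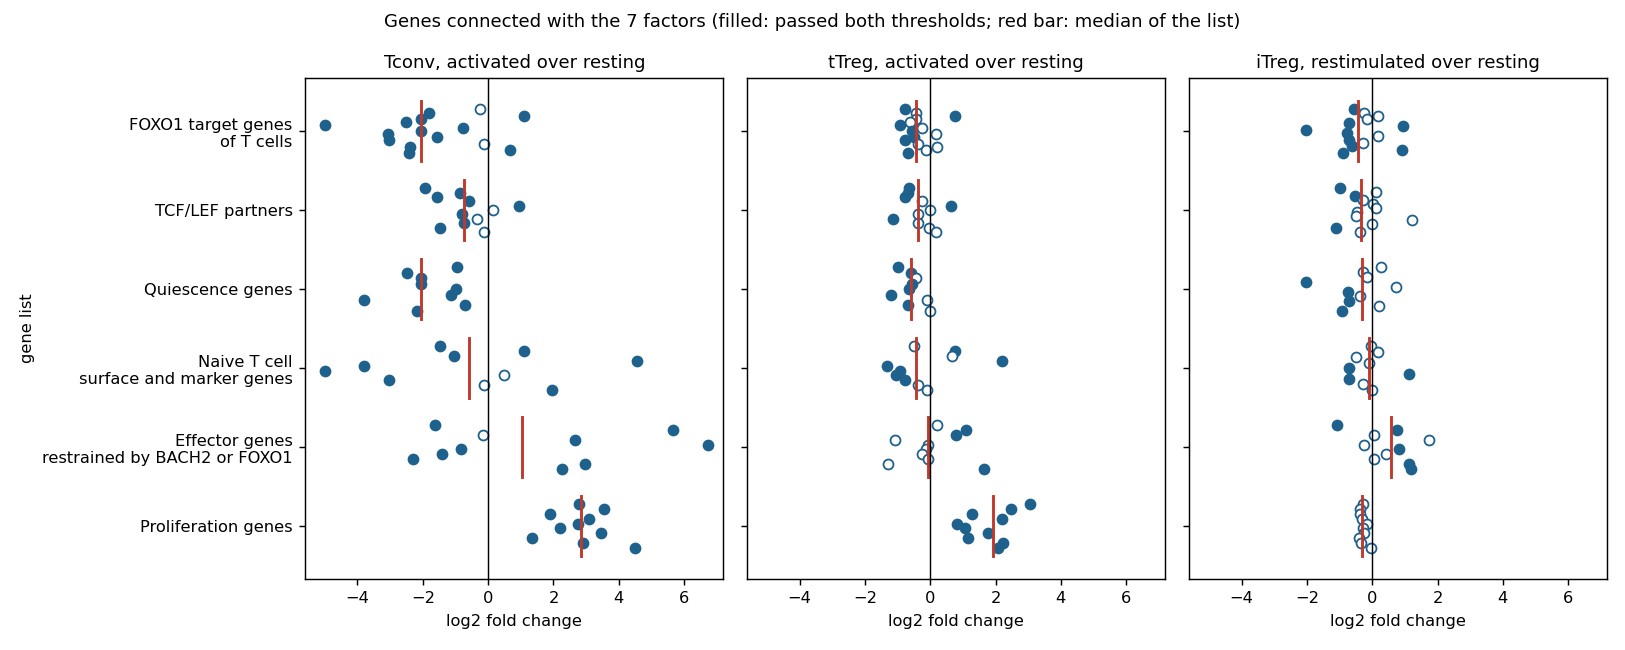
Log2 fold change (x axis) of the genes of 6 lists (y axis) on stimulation of Tconv, tTreg and iTreg. Each point is a gene, filled where it passed both thresholds, and red bars are list medians. The quiescence genes lie left of 0 in Tconv (median -2.05), and the proliferation genes lie right of 0 in Tconv and tTreg and close to 0 in iTreg (median -0.30).

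The genes most alike to each of the 7 were taken by Pearson's r of the log2 values over the 24 libraries among 11725 genes, as a description, since the libraries share 8 groups. Tcf7 and Lef1 were each other's nearest gene (r = 0.98), and Gramd3 was among the nearest 3 of both (r = 0.98). Cep97 followed for Tcf7 and Tnfrsf26 for Lef1 (both r = 0.98). For Foxp1 the nearest were Pdcd4, a translation inhibitor (r = 0.99), Cmah and Sp100 (both r = 0.99). For Foxo3 they were Kdsr (r = 0.97), the interferon-γ receptor gene Ifngr1 (r = 0.96) and Arid5b (r = 0.95), for Satb1 F8a, Tgfbr3 (both r = 0.96) and Eif5 (r = 0.95). The nearest genes of Foxo1 were Taf4b, Rbm25 and Zfp873 (all r = 0.94) and those of Bach2 Zfp429 (r = 0.95), Zfp60 (r = 0.94) and Taf4b (r = 0.93).

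Among themselves the 7 genes fell into patterns of unequal likeness over the same 24 libraries. Foxo1 and Bach2 had r = 0.93, and Tcf7 and Foxp1 r = 0.90. Foxo3 had r = -0.07 with Tcf7 and r = -0.79 with Satb1, and Satb1 had r = 0.30 with Tcf7. These values rest on differences between 8 groups and describe them.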

How the data were processed

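RNA was measured in 24 libraries by a modified SMART-seq2 protocol, which does not mark strand, after 22 PCR cycles without molecular identifiers. Per the methods of the study, reads were trimmed with cutadapt (1.18), aligned to mm10 with STAR (2.5.3) and counted on GENCODE genes with RSEM (1.3.0). The authors deposited a normalized signal: each gene's count over the size factor of its library, called normalized count here. All of them (100%) were whole multiples of the library's step within 0.001 reads, which gave back the reads. A floor of 3 reads was worth 2.12 to 5.45 normalized counts and covers counting error only.

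Genes that reached 10 normalized counts in 3 or more libraries entered limma (3.58.1, R 4.3.3, variance trend) on log2(normalized count + 1), a scale that understates changes of low genes. One fit held the 15 resting and activated libraries, one the 12 iTreg libraries and one all 24, for restimulated iTreg against activated cells. Adjusted p-values are Benjamini-Hochberg values over all genes tested, with intervals at 95%. Lists were counted with these values and not tested as sets. Aes, on the list of TCF and LEF partners, was not in the table under that symbol. Alternatives were other scalings, pseudocounts (0.1 and 5), filters, fold thresholds, a replicate block, edgeR (4.0.16) and DESeq2 (1.42.0) on the recovered reads, and each library left out. The 15-library fit was tested on simulated data for activated against resting Tconv only, with 200 changed genes. It recovered 67 of 100 genes at a log2 fold change of 1 in size and 89 of 100 at 2, with 6 false calls. The other fits and the interaction were not tested in this way. Genes were named by a rule: the 7 members, at most 4 genes of a list in a comparison, by size of change or a direct tie to a member, and 3 most alike genes per member. The members, lists and this rule were chosen with earlier results of these data known. Some genes of the lists are counted but not reported here by name. Exon lengths came from GENCODE vM21, another release of the same build than the authors used.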

Additional observations from a re-analysis of the deposited data

Results flagged for a closer look

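Activation in Tconv and in tTreg was compared by the interaction of the limma fit, and 4 of the 7 genes were picked out because their responses differed between the 2 cell types. The difference, Tconv minus tTreg on the log2 scale, was -2.10 for Tcf7, which changed by -2.24 in Tconv and -0.14 in tTreg, and -0.58 for Lef1 (-1.15 and -0.56). It was 0.66 for Foxo1 (-0.04 and -0.71) and 0.53 for Bach2 (-0.19 and -0.72). Tcf7 and Foxo1 passed without any 1 library, and the other two did not. Groups of 3 libraries were not screened for single libraries that stand apart.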

How the results depend on the processing

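Of 1946 values of the 7 genes under an alternative, 1864 kept their direction and their side of the thresholds, and 25 turned sign, none of them for a gene that had passed. A fold threshold of 1 lowered the count of changed genes from 3 to 0 on tTreg activation, from 4 to 1 in the interaction and from 5 to 3 between resting tTreg and resting Tconv. It left 3 in resting iTreg against activated Tconv and against resting tTreg, 1 in restimulated iTreg against activated tTreg and 3 against activated Tconv, by its own construction. The adjusted p alone, added after seeing the data, gave 3 on restimulation, 2 with the ORAI inhibitor and 2 with CsA against restimulated iTreg. Leaving out 1 library gave 2 to 4 genes in the interaction, 2 to 4 on tTreg activation and 0 to 1 on restimulation. A fit with the replicate number as a block gave the same counts, such as 3 on Tconv activation and 0 on restimulation. The numbers were not taken as pairs, since not every pair of same-numbered libraries correlated above 0.1 in its deviations (6 of 30 did over the 15 libraries and 10 of 18 over the 12). Deviations of same-numbered libraries correlated by -0.007 on average over the 15 libraries and 0.15 over the 12.

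At 31 other places a call moved, each across the fold of 0.5 with the adjusted p still under 0.05. Foxo3 in resting iTreg against activated Tconv stood at 0.44 under quantile normalization and at 0.4998 with edgeR and 0.498 with DESeq2. In restimulated iTreg against activated Tconv it stood at 0.47 under quantile normalization and 0.43 with edgeR. Lef1 lost the interaction under quantile normalization (-0.49), which also moved the median of all genes in resting iTreg against resting Tconv to -0.12 and the share of higher calls against activated Tconv from 55.1% to 42.5%, and in restimulated iTreg from 54.9% to 43.7%. Foxp1 on Tconv activation (-0.52) and Satb1 on tTreg activation (-0.53) passed under it. Bach2 on restimulation ranged from 0.43 to 0.54, with adjusted p from 1.61e-06 to 0.00274, and against restimulated iTreg the adjusted p ranged from 0.00417 to 0.0685 with the ORAI inhibitor and from 0.000145 to 0.0206 with CsA. That of Tcf7 with CsA ranged from 0.0176 to 0.0976 and that of Lef1 with the ORAI inhibitor from 0.034 to 0.216. The cause was not tested.

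Values that turned sign lay near 0. With the ORAI inhibitor against resting iTreg, Lef1 was at -0.000468 after rescaling and Foxp1 at 0.0246 under quantile normalization and 0.00315 with edgeR. Without 1 library they ranged from -0.0413 to 0.0389 and from -0.0521 to 0.0392. The others turned only without 1 library, with these ranges: Foxo1 on Tconv activation (-0.0777 to 0.02), Foxo1 in resting tTreg against resting Tconv (-0.0525 to 0.13), Foxo3 on restimulation (-0.0459 to 0.0417), Foxo1 with the ORAI inhibitor against restimulated iTreg (-0.0651 to 0.045), Satb1 with the ORAI inhibitor against restimulated iTreg (-0.11 to 0.00218), Foxp1 with CsA against restimulated iTreg (-0.00348 to 0.0973), Foxp1 between the inhibitors (-0.0222 to 0.0847), Foxo1 with CsA against resting iTreg (-0.0424 to 0.0862), Foxp1 with CsA against resting iTreg (-0.0825 to 0.0183) and Foxo1 in restimulated iTreg against activated tTreg (-0.11 to 0.0788).

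With a filter of 100 normalized counts, the genes called fell from 1425 to 878 on restimulation, from 324 to 213 with CsA, from 789 to 479 with the ORAI inhibitor against rest and from 1047 to 654 with CsA against rest. A fold threshold of 1 lowered them to between 6 and 4781 over the 16 comparisons. Libraries of a group differed by 2.75 to 36.3 times the counting variance per gene, so the spread between 3 libraries limits these values more than depth does.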
